A study of Homo sapiens with 8 samples.

Results

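The effect of fucoidan was measured across both settings in which it was given, alone and together with diesel particles, in ARPE-19 cells, an established human cell line derived from the retinal pigment epithelium. All 8 of the 8 libraries of the series entered 1 model with a fucoidan factor and a particulate factor. The fucoidan coefficient of that model sets 4 libraries with fucoidan against 4 without it. The fucoidan group received 400 µg/mL of a crude-grade preparation from the brown alga Fucus vesiculosus dissolved in PBS, against a control group that received the same volume of PBS. The combination group received 400 µg/mL fucoidan and, at the same time, 200 µg/mL of the diesel particle reference material NIST SRM 1650b, which the labels also call PM2.5. Its counterpart, the particulate group, received 200 µg/mL of the particles alone. All cells were treated for 24 h, and each group had 2 biological replicates. The particles were suspended in DMSO before dilution and no library received DMSO alone, but this holds for the combination and the particulate group alike. The labels do not say whether replicates were separate cultures, so p-values measure the spread between these libraries.

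Fucoidan is a sulfated, fucose-rich polysaccharide of brown seaweed that binds growth factors, receptors and matrix proteins at the cell surface. Cells make cholesterol from acetyl-CoA through mevalonate, farnesyl diphosphate, squalene and lanosterol. When membrane sterol is low, the escort protein SCAP carries the SREBP transcription factors out of the endoplasmic reticulum, where INSIG proteins otherwise retain them, and the cleaved factors switch on the enzymes of this pathway. The retinal pigment epithelium handles much lipid, because it takes up shed photoreceptor membranes and exchanges cholesterol with the blood and the retina.

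Messenger RNA of cholesterol synthesis enzymes was higher with fucoidan across the 2 settings. Of 15010 genes tested, 18 passed an adjusted p of 0.05 for the fucoidan coefficient (0.12%). Of these 17 were higher (0.113%) and 1 was lower (0.00666%). Described here are 16 higher genes and the lower one, 17 in all. The higher genes were HMGCS1, COL1A1, MSMO1, INSIG1, PNPLA3, SQLE, MVD, IDI1, LMCD1, FDFT1, ACAT2, DHCR7, PMEPA1, LSS, FDPS and CLEC19A, and the lower gene was OAF. Cholesterol synthesis enzymes made up 10 of the 17. In 16 of the 17, the fucoidan libraries did not overlap the control libraries, nor the combination libraries the particulate libraries, and CLEC19A was the exception. Over all genes, 7.84% lay higher and 8.65% lower without overlap in both settings. The 17 were called on these same libraries, so their separation adds no further evidence. At an unadjusted p of 0.05, 1209 genes were higher (8.05%) and 1075 lower (7.16%).

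The test was edgeR's quasi-likelihood test with Benjamini-Hochberg adjustment, and each log2 fold change is given with its standard error. The number of genes called depended on the tool and on single libraries: DESeq2 called 122 higher and 91 lower genes, among them all 18. Without 1 library at a time, 3 genes were called higher when either fucoidan replicate was omitted, 2 when control replicate 1 was, 3 for control replicate 2, 51 for combination replicate 1, 34 for combination replicate 2, 9 for particulate replicate 1 and 1 for particulate replicate 2. All 18 genes kept their direction in each of these fits, and COL1A1 passed in every one of them. HMGCS1 passed in 7 of the 8 fits, IDI1 in 6 and the other named genes in 1 to 3.

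Total counts per library ran from 12993565 to 17019284. Combination replicate 1 stood apart, at -58.4 on a principal component holding 18.7% of the variance, against 8.62 for combination replicate 2. The share of genes with a replicate difference of 2-fold or more was 1.55% with fucoidan, 1.61% in control, 11.3% in the combination and 3.55% with particulate. Mitochondrially encoded genes took 1.22% and 1.26% of the counts with fucoidan, 1.25% and 1.94% in control, 2.05% and 2.37% in the combination and 3.42% and 2.03% with particulate. Of 15 pigment epithelium markers 10 were tested, among them MITF, OTX2, LRAT and RLBP1, whereas RPE65 had 2 reads in all libraries together, RGR 1 and TTR 0. The epithelial keratin genes KRT8 and KRT18, of 943 to 2150 and 527 to 1460 CPM, made up most of the sum of the 15, which was 3660 and 3800 CPM with fucoidan, against 3590 and 3270 CPM in control, and 1540 and 1990 CPM in the combination, against 2310 and 1800 CPM with particulate. The other 13 summed to 203 and 193 CPM with fucoidan, against 181 and 170 CPM in control, and 69.3 and 95.3 CPM in the combination, against 75.8 and 80.8 CPM with particulate. Of 19 markers of blood, vessel, photoreceptor, glial and other cells, 11 had under 10 reads in all. GLUL and PDGFRB, of 135 to 250 and 23.6 to 285 CPM, made up nearly all of the sum of the 19, which was 543 and 506 CPM with fucoidan, against 503 and 454 CPM in control, and 205 and 217 CPM in the combination, against 171 and 163 CPM with particulate. The other 17 summed to 0.837 to 7.85 CPM per library. The part of these differences in the results was not tested, and fewer cells of a type cannot be told apart from less RNA per cell in bulk libraries.

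**Figure D1:**
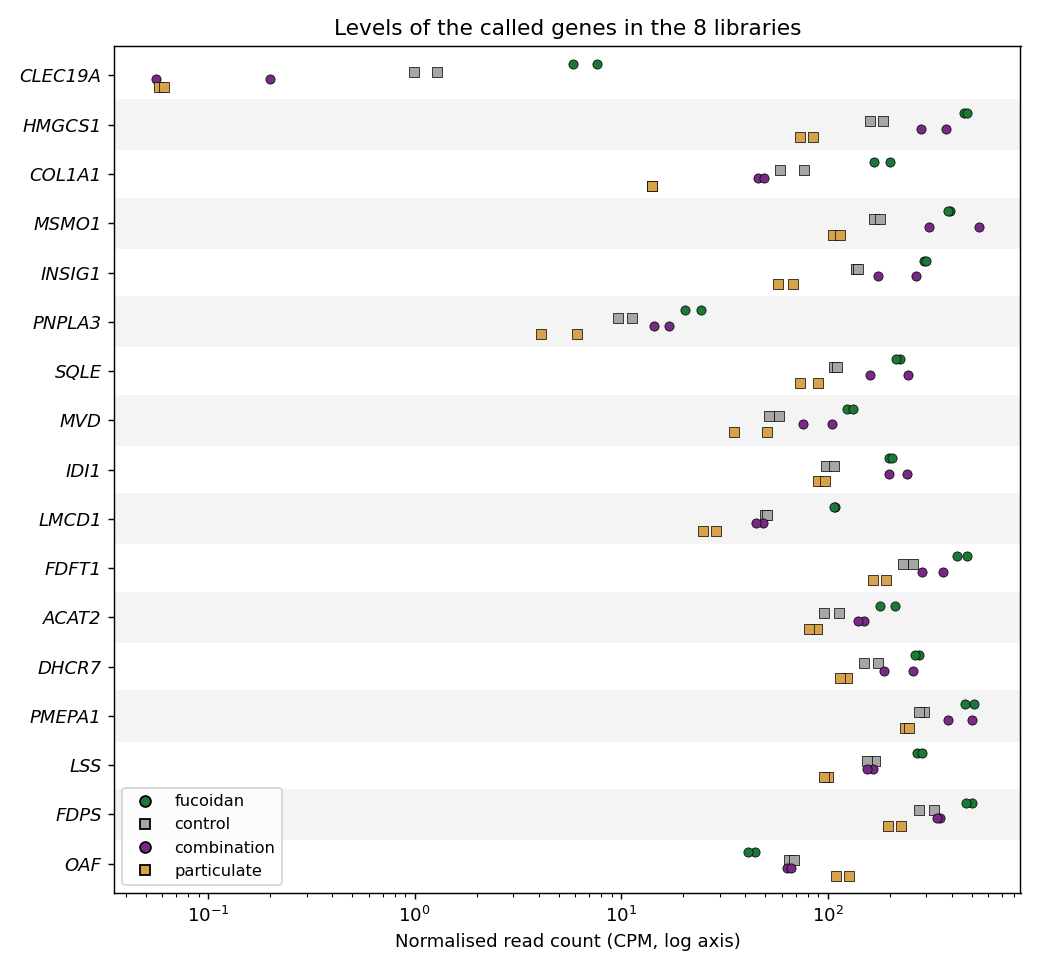
Normalised read counts (CPM, log axis) of 17 genes that passed the test, 1 point per library, with fucoidan above control and combination above particulate in each row. Apart from CLEC19A, the circles of the fucoidan-treated libraries lie on 1 side of the squares of their untreated counterparts in both settings, to the right for the higher genes and to the left for OAF.

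HMGCS1 and ACAT2, which act between acetyl-CoA and mevalonate, both rose, HMGCS1 by more. HMGCS1 (HMG-CoA synthase, GRCh38 chr5:43289395-43313512, minus strand) had 459.9 and 472 CPM in fucoidan cells, against 161 and 186 CPM in control cells, and 373 and 283 CPM in combination cells, against 73.5 and 84.8 CPM in particulate cells. Every fucoidan-treated library lay above every untreated one. The coefficient was 1.74 ± 0.16, a 3.33-fold increase (adjusted p = 0.00337). ACAT2, the cytosolic thiolase of the first step, had 179 and 212 CPM in fucoidan cells, against 96.4 and 113 CPM in control cells, and 151 and 140.1 CPM in combination cells, against 88.9 and 80.8 CPM in particulate cells. Its libraries separated within each setting, and ACAT2 rose by 0.84 ± 0.11 (adjusted p = 0.0192). ACAT2 overlaps TCP1 on the opposite strand, as FDPS, DHCR7 and MVK overlap other tested transcripts, and the sources used here do not say whether reads were counted by strand.

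Between mevalonate and farnesyl diphosphate, MVD, IDI1 and FDPS passed and 2 kinases did not. IDI1 (isopentenyl diphosphate isomerase) had 198 and 205 CPM in fucoidan cells, against 98 and 107 CPM in control cells, and 242 and 197 CPM in combination cells, against 89.9 and 97.3 CPM in particulate cells, and the particulate libraries were close to the control ones. Its coefficient was 1.10 ± 0.11 (adjusted p = 0.00644). MVD, the diphosphomevalonate decarboxylase, had 125 and 133 CPM in fucoidan cells, against 58.5 and 52.1 CPM in control cells, and 105 and 75.8 CPM in combination cells, against 50.8 and 35.3 CPM in particulate cells. It rose by 1.15 ± 0.15 and FDPS, farnesyl diphosphate synthase, by 0.69 ± 0.10 (adjusted p = 0.0192 and 0.0348). FDPS had 502 and 468 CPM in fucoidan cells, against 278 and 326 CPM in control cells, and 348 and 339 CPM in combination cells, against 228 and 195 CPM in particulate cells. The mevalonate kinase gene MVK had a coefficient of 1.00 ± 0.17 with an adjusted p of 0.0733, and its libraries did not overlap in either setting. It passed without combination replicate 1 (adjusted p = 0.0167). PMVK, the next kinase, was the 1 member of 19 listed with a negative coefficient, -0.25 ± 0.15 (adjusted p = 0.423). GGPS1, which leads off to geranylgeranyl diphosphate, stood at 0.12 ± 0.11 (adjusted p = 0.612), and it shares its strand with the overlapping TBCE.

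The enzymes committed to sterol followed the same direction. FDFT1, the squalene synthase, had 422 and 474 CPM in fucoidan cells, against 231 and 259 CPM in control cells, and 363 and 287 CPM in combination cells, against 192 and 166 CPM in particulate cells. SQLE, the squalene epoxidase, had 225 and 214 CPM in fucoidan cells, against 107 and 111 CPM in control cells, and 244 and 159.6 CPM in combination cells, against 73.6 and 90.3 CPM in particulate cells. Their coefficients were 0.86 ± 0.11 and 1.16 ± 0.15 (adjusted p = 0.0192 for both). LSS, which closes the rings to form lanosterol, had 269.7 and 287 CPM in fucoidan cells, against 170.5 and 156 CPM in control cells, and 165 and 155 CPM in combination cells, against 101 and 95.9 CPM in particulate cells. Combination cells were at about the control level for LSS, whereas for SQLE and IDI1 they lay above it. LSS rose by 0.74 ± 0.09 (adjusted p = 0.0192).

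Past lanosterol, MSMO1 and DHCR7 passed. MSMO1, a methylsterol oxidase, had 391 and 384 CPM in fucoidan cells, against 168 and 180.3 CPM in control cells, and 543 and 308 CPM in combination cells, against 106 and 115 CPM in particulate cells. In combination replicate 1 it was higher than in any other library, and its coefficient was 1.55 ± 0.20 (adjusted p = 0.0192). DHCR7, the last step of one branch to cholesterol, had 276 and 265 CPM in fucoidan cells, against 175 and 149.5 CPM in control cells, and 259.6 and 188 CPM in combination cells, against 124 and 115 CPM in particulate cells, with a coefficient of 0.82 ± 0.12 (adjusted p = 0.0415). Other enzymes of this stretch did not pass. CYP51A1, the lanosterol demethylase, stood at 1.30 ± 0.22 (adjusted p = 0.0639), HSD17B7 at 0.76 ± 0.12 (0.0614) and SC5D at 0.82 ± 0.15 (0.0916), with no overlap between libraries in either setting. Without combination replicate 1 all of these passed (adjusted p = 0.0167, 0.0171 and 0.0223), and SC5D also without combination replicate 2 (0.0396). TM7SF2 and NSDHL were both at 0.53 (adjusted p = 0.196 and 0.204), and EBP at 0.39 ± 0.14 (0.265). TM7SF2 overlaps VPS51 on the same strand, so its reads may be split between them, and it had an adjusted p of 0.0426 without combination replicate 1.

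In the list of 19 cholesterol synthesis enzymes, all of which were tested, 10 rose (52.6%, against 0.113% of all genes) and 0 fell. Coefficients were positive in 18 of the 19, against 52% of all genes, and their median was 0.82, against 0.01 over all genes. At an unadjusted p of 0.05, 17 members were higher and 0 lower, and 15 were higher with no overlap in both settings, against 7.84% of all genes. The mean log2 CPM of the list was 6.83 and 6.90 with fucoidan, against 6.06 and 6.10 in control, and 6.74 and 6.44 in the combination, against 5.77 and 5.66 with particulate. With 1 library left out, the count of members that rose was 2 for either fucoidan replicate, 1 for control replicate 1, 2 for control replicate 2, 15 for combination replicate 1, 11 for combination replicate 2, 6 for particulate replicate 1 and 0 for particulate replicate 2. DESeq2 called 16 members higher. The median coefficient was 0.78 without combination replicate 1.

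**Figure D2:**
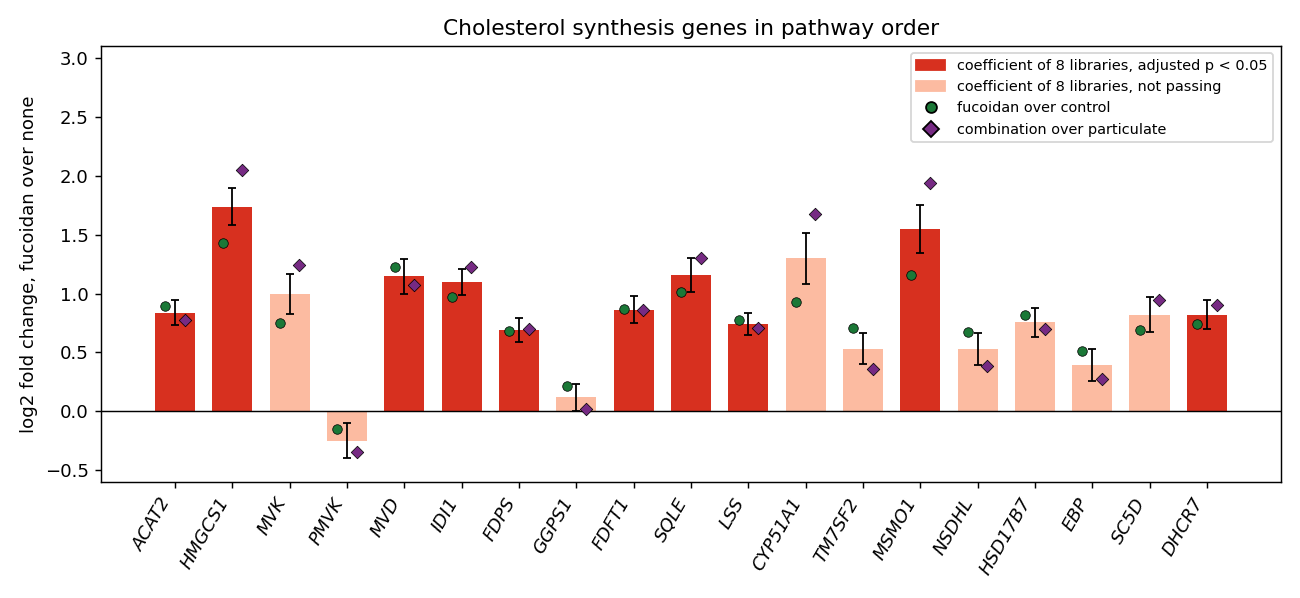
The 19 listed cholesterol synthesis enzymes in pathway order. Bars give the fucoidan coefficient of all 8 libraries (log2, error bars are the SE, dark where adjusted p is under 0.05), circles fucoidan over control and diamonds combination over particulate; PMVK is the 1 bar below 0 and HMGCS1 the tallest at 1.74.

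**Figure D3:**
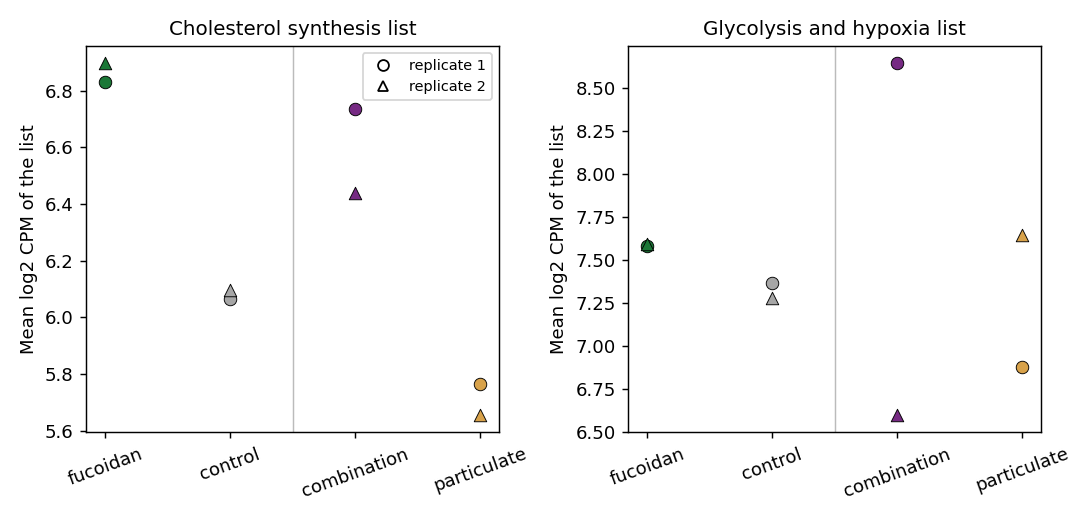
Mean log2 CPM of the cholesterol synthesis list (left) and of the glycolysis and hypoxia list (right) in each library, with circles for replicate 1 and triangles for replicate 2. The cholesterol means separate in both settings, whereas the 2 combination libraries lie at 8.64 and 6.60 on the glycolysis list and enclose the particulate libraries.

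The promoters of 3 of the genes that rose are shown because sterol-regulated promoters are known to pair SREBP sites with CCAAT boxes, which the factor NF-Y binds. HMGCS1, MSMO1 and INSIG1 are each given for the 250 bases before the gene start in RefSeq, 5′ to 3′ on the gene's strand (RefSeq, GRCh38.p14). The positions are chr5:43313413-43313662 on the minus strand for HMGCS1, chr4:165327419-165327668 on the plus strand for MSMO1 and chr7:155297628-155297877 on the plus strand for INSIG1. GENCODE 29 starts these genes further upstream, so that part of each stretch lies inside the gene as GENCODE places it. Capitals mark CCAAT on either strand, so also ATTGG, and in INSIG1 the palindrome TCACGTGA.
HMGCS1: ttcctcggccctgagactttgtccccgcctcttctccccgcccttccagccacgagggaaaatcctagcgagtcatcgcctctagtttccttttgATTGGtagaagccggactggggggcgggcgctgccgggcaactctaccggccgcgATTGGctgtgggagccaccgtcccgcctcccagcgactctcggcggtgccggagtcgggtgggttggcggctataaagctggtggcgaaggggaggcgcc
MSMO1: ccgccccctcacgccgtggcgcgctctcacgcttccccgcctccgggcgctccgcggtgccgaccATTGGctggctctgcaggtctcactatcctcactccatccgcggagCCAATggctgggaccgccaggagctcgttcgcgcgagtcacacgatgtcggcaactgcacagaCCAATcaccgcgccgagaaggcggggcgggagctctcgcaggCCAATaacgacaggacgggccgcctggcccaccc
INSIG1: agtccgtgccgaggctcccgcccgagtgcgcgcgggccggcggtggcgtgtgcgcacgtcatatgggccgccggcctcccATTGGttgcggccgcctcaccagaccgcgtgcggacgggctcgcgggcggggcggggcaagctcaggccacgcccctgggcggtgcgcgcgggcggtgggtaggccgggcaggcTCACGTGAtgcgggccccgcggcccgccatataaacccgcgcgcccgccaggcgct

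HMGCS1 held 2 CCAAT matches in this stretch, MSMO1 4 and INSIG1 1. In windows of 300 bases, reaching past the start of the gene, 10 of the 11 called genes with an entry in the promoter table held CCAAT on either strand (90.9%), against 39.7% of the 27305 genes and 34.6% of the 35116 promoters in the table. In the cholesterol synthesis list 14 of 16 did (87.5%), and HMGCS1, MSMO1, MVD, IDI1, LSS, FDPS and DHCR7 count in both sets. The promoter table was not limited to the genes tested here, so its shares take in genes that were not tested. The SREBP motif TCACNCCAC, searched on both strands, was found in 0 of the 11 and in 1.4% of all genes. TCACGTGA was found in INSIG1 alone of the 11 and in 1.2% of all genes. These matches describe letters only.

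Among the regulators of the pathway, INSIG1 passed and the transcription factors themselves did not. INSIG1, which retains the SREBP escort in the endoplasmic reticulum and is itself an SREBP target, had 294 and 299.7 CPM in fucoidan cells, against 137 and 141 CPM in control cells, and 269 and 175 CPM in combination cells, against 57.3 and 67.8 CPM in particulate cells. Each treated library exceeded its untreated counterparts, and the coefficient was 1.46 ± 0.18 (adjusted p = 0.0192). In the list of 14 tested SREBP regulators and LDL uptake genes, 1 rose (7.14%, against 0.113% of all genes) and 0 fell. The median was 0.23. Without combination replicate 1 the count that rose was 2 and the median 0.005, without combination replicate 2 the median was 0.45, and without any single fucoidan, control or particulate library the count was 0. STARD4, a sterol transfer protein, stood at 0.98 ± 0.18 (adjusted p = 0.095, and 0.0409 without combination replicate 1) and SREBF2, which encodes the SREBP of cholesterol genes, at 0.42 ± 0.14 (0.261). SREBF1 had 106 and 104 CPM in fucoidan cells, against 111 and 97.6 CPM in control cells, and 129 and 58 CPM in combination cells, against 74.4 and 74.8 CPM in particulate cells. Its coefficient of 0.17 ± 0.21 (adjusted p = 0.699) was -0.13 without combination replicate 1. LRP8, a lipoprotein receptor, was at -0.38 ± 0.12 and SCAP at -0.16 ± 0.10, neither passing.

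Fatty acid synthesis genes leaned the same way without passing. Of the 16 tested, 15 had a positive coefficient, against 52% of all genes. At an unadjusted p of 0.05, 8 were higher and 1 lower, against 8.05% and 7.16% of all genes. After adjustment 0 passed by edgeR, against 5 with DESeq2. By edgeR 3 passed without combination replicate 1, 2 without combination replicate 2 and 0 without any other single library. The median was 0.25. SCD, the desaturase that makes oleate, had 2356 and 2188 CPM in fucoidan cells, against 1154 and 1129 CPM in control cells, and 3345 and 1367 CPM in combination cells, against 623 and 998 CPM in particulate cells. Its libraries did not overlap in either setting but combination replicate 1 lay far above replicate 2, and the coefficient was 1.27 ± 0.26 (adjusted p = 0.134). It passed without either combination replicate (0.0251 and 0.0381), and without each of the other libraries its adjusted p lay higher, up to 0.459. FADS2, a desaturase of polyunsaturated fatty acids, stood at 0.69 ± 0.11 (adjusted p = 0.0529, and 0.0171 and 0.0304 without combination replicates 1 and 2) and had 1452 and 1409 CPM in fucoidan cells, against 980.0 and 903 CPM in control cells, and 1226 and 946 CPM in combination cells, against 633 and 629.7 CPM in particulate cells. FADS1, a second desaturase that overlaps FADS2 on the opposite strand, was at 0.46 ± 0.11 (0.191). FASN, the fatty acid synthase, stood at 0.62 ± 0.12, ACSS2 at 0.51 ± 0.11, ACLY at 0.36 ± 0.11 and ELOVL1 at -0.26 ± 0.10. Of 11 tested LXR and cholesterol efflux genes, 0 had an unadjusted p under 0.05 by edgeR with all libraries. Without combination replicate 1 it was 1 higher and 3 lower, and 1 lower without either particulate replicate. ABCA1, the exporter that LXR switches on when sterol is plentiful, had 14.5 and 11.7 CPM in fucoidan cells, against 19.2 and 15 CPM in control cells, and 29.1 and 16.6 CPM in combination cells, against 21.7 and 46.4 CPM in particulate cells, with overlap in the setting with particles and a coefficient of -0.48 ± 0.25 (adjusted p = 0.368).

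The 7 called genes outside the list of enzymes include INSIG1 and 6 others. COL1A1 (GRCh38 chr17:50183289-50201632, minus strand), a chain of type I collagen, had 201 and 168 CPM in fucoidan cells, against 76.7 and 59 CPM in control cells, and 46.1 and 49 CPM in combination cells, against 14.1 and 14.2 CPM in particulate cells. The separation held in both settings on very different levels, and the coefficient was 1.59 ± 0.13 or 3.01-fold, with the smallest adjusted p of all genes (0.00232). PMEPA1, a membrane protein that TGF-beta induces and that limits SMAD signalling, had 510.5 and 464 CPM in fucoidan cells, against 294 and 278 CPM in control cells, and 499 and 382 CPM in combination cells, against 237 and 249 CPM in particulate cells. It rose by 0.81 ± 0.11 (adjusted p = 0.0217) and overlaps the transcript NKILA on the opposite strand.

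LMCD1, a LIM domain cofactor that restrains GATA factors, had 108 and 107 CPM in fucoidan cells, against 50.0 and 51.1 CPM in control cells, and 48.6 and 45.1 CPM in combination cells, against 28.9 and 24.9 CPM in particulate cells, with close replicates in every group. It rose by 0.95 ± 0.11 (adjusted p = 0.0163). PNPLA3, a lipid droplet hydrolase known for a variant tied to fatty liver, had 24.5 and 20.4 CPM in fucoidan cells, against 11.3 and 9.65 CPM in control cells, and 17.1 and 14.4 CPM in combination cells, against 4.09 and 6.11 CPM in particulate cells. It rose by 1.35 ± 0.18 (adjusted p = 0.0192), and it overlaps SAMM50 on the same strand. CLEC19A, a C-type lectin family member that overlaps another transcript on its strand, had 7.64 and 5.87 CPM in fucoidan cells, against 0.991 and 1.28 CPM in control cells, and 0.2 and 0.0557 CPM in combination cells, against 0.0577 and 0.0611 CPM in particulate cells. With particles few reads were counted in any of the 4 libraries, so its coefficient of 2.42 ± 0.33 (adjusted p = 0.0246) came from the cells without particles. OAF (GRCh38 chr11:120210767-120230332, plus strand), a gene named after a fly gene, had 44.5 and 41.3 CPM in fucoidan cells, against 64.7 and 68.5 CPM in control cells, and 63.9 and 66.8 CPM in combination cells, against 127 and 109 CPM in particulate cells. It lay lower with fucoidan in both settings and fell with a coefficient of -0.75 ± 0.10 (adjusted p = 0.0246).

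Most genes of the TGF-beta and collagen lists had positive coefficients, but few passed. Of 23 tested TGF-beta ligands, receptors and targets, 18 had a positive coefficient, against 52% of all genes. At an unadjusted p of 0.05, 9 were higher and 1 lower, against 8.05% and 7.16% of all genes. After adjustment 2 rose (COL1A1 and PMEPA1), against 0.113% of all genes, 0 fell and the median was 0.19. Without any single fucoidan, control or particulate library 1 rose. Of 25 tested fibrillar collagen and matrix genes 19 were positive, against 52% of all genes. At an unadjusted p of 0.05, 9 were higher and 0 lower, against 8.05% and 7.16% of all genes. After adjustment 1 rose (4%, against 0.113% of all genes), and the median was 0.21. The 1 gene was COL1A1, already counted in the TGF-beta list. The TGF-beta median was 0.13 without particulate replicate 1, and the collagen median 0.15 without combination replicate 1. SKIL and SMAD7, feedback inhibitors that TGF-beta induces, stood at 0.83 ± 0.21 and 0.57 ± 0.15 (adjusted p = 0.198 and 0.204), without overlap in either setting. TAGLN, a smooth muscle actin-binding protein and also a TGF-beta target, had 2289 and 2584 CPM in fucoidan cells, against 3640.5 and 3602 CPM in control cells, and 1191 and 1096 CPM in combination cells, against 1949 and 1462 CPM in particulate cells. It lay lower with fucoidan in both settings, at -0.57 ± 0.11 (adjusted p = 0.113). COL5A1 was at 0.77 ± 0.18, SPARC at 0.42 ± 0.11 and THBS1 at 0.65 ± 0.26 (adjusted p = 0.191, 0.202 and 0.292), and THBS1 at 0.25 without combination replicate 2. COL1A2, the partner chain of type I collagen, had 1.48 and 1.38 CPM in fucoidan cells, against 0.85 and 1.21 CPM in control cells, and 0.6 and 0.39 CPM in combination cells, against 0.404 and 0.428 CPM in particulate cells. At these low levels the combination and particulate libraries overlapped, and the coefficient was 0.37 ± 0.28 (adjusted p = 0.521).

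The design asks whether fucoidan acted alike with and without particles. In a fit with 1 mean per group, the interaction passed for 0 genes by edgeR (668 at an unadjusted p of 0.05, 4.45%) and for 18 by DESeq2. It passed for 865 genes without combination replicate 2, for 2 without combination replicate 1 and for 0 without any other single library. For the 17 genes the adjusted p of the interaction ran between 0.897 and 0.994. Without adjustment edgeR gave 0.0283 for INSIG1, 0.0289 for HMGCS1 and 0.0366 for MSMO1, and values above 0.05 for the others. The difference was larger with particles in 11 of the 17, among them INSIG1, HMGCS1 and MSMO1, and without particles in 6. For HMGCS1, combination over particulate was 2.05 ± 0.18 and fucoidan over control 1.43 ± 0.17, and the interaction was 0.62 (95% interval -0.05 to 1.30). For COL1A1 the same values were 1.75 ± 0.18 and 1.44 ± 0.17, with an interaction of 0.30 (95% interval -0.37 to 0.98). For FDFT1 they were 0.86 ± 0.17 and 0.87 ± 0.17, with an interaction of -0.01 (95% interval -0.67 to 0.64). For CLEC19A the interaction was -1.61 (95% interval -5.08 to 1.87). These intervals span values on both sides of 0. They use the 4 residual degrees of freedom alone, fewer than the test used, and are wider than it implies. For HMGCS1 the interval thus holds 0 although the unadjusted p was under 0.05. A p that misses the threshold does not show that the effects were equal.

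Taken singly, the settings gave fewer calls in this fit. Combination against particulate called 12 higher genes (0.0799%) and 1 lower (0.00666%), among them 5 of the 17, against 312 genes by DESeq2. Fucoidan against control called 0 by edgeR, with 662 at an unadjusted p of 0.05 (4.41%) and 21 by DESeq2, and the lowest adjusted p of the 17 genes there was 0.0953. A fit of only the 4 libraries compared called 849 genes for fucoidan against control and 0 for combination against particulate. In the fit with all groups, fucoidan against control called 38 genes without combination replicate 1, 32 without combination replicate 2 and 0 without any other single library. Combination against particulate called 59 without combination replicate 1 and 3257 without combination replicate 2. It called 1 without fucoidan replicate 2 or particulate replicate 1, and 0 without any of the other 4 libraries. Over all genes, 717 of 15010 had libraries without overlap in both settings but in opposite directions, against 1177 higher in both (7.84%) and 1298 lower in both (8.65%).

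**Figure D4:**
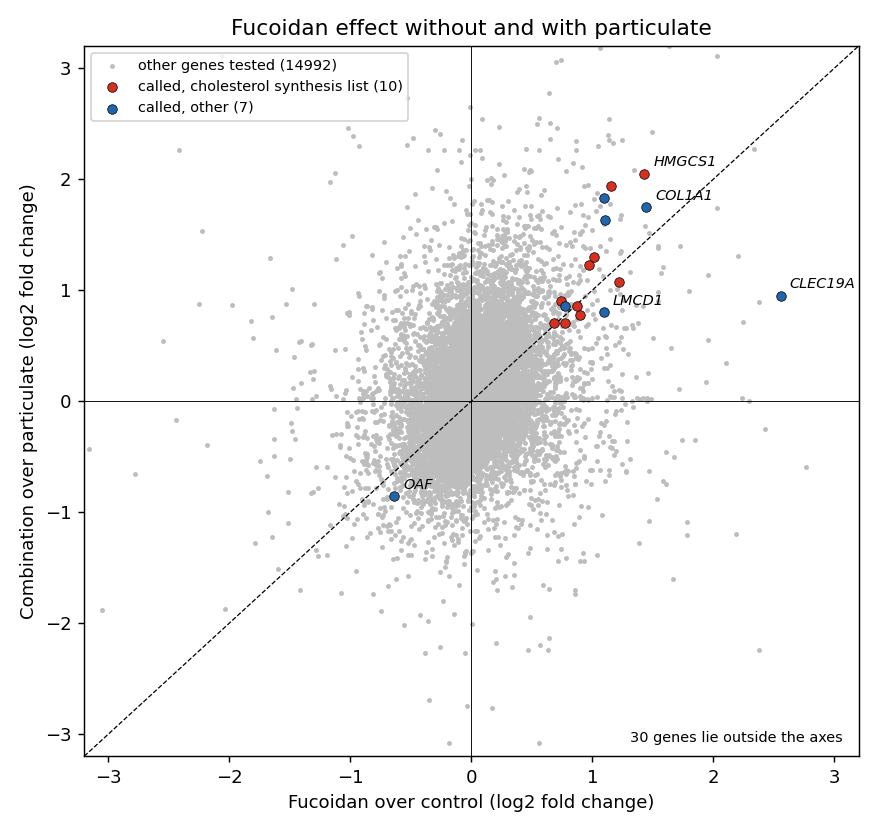
Log2 fold change of the tested genes in cells without particles (x axis, fucoidan over control) and with particles (y axis, combination over particulate), with the line of equal change dashed. The 10 called cholesterol genes and the 7 other called genes lie in the upper right quadrant except OAF, and CLEC19A lies far below the dashed line.

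The genes that rose with fucoidan had particulate coefficients below 0, some of them without passing. The particulate coefficient of the same model was negative in 16 of the 16 higher genes and positive for OAF, and it passed an adjusted p of 0.05 in 13 of the 17, against 19.5% of all genes higher and 18.7% lower with particles. It was -2.10 ± 0.13 for COL1A1 (adjusted p = 3.41e-06), -0.82 ± 0.15 for HMGCS1 (0.00222) and 0.72 ± 0.10 for OAF (0.000499). It did not pass for MSMO1 (-0.26 ± 0.20, adjusted p = 0.334), SQLE (-0.27 ± 0.14, 0.172) or PMEPA1 (-0.19 ± 0.11, 0.193). For IDI1 it was close to 0 (adjusted p = 0.99).

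**Figure D5:**
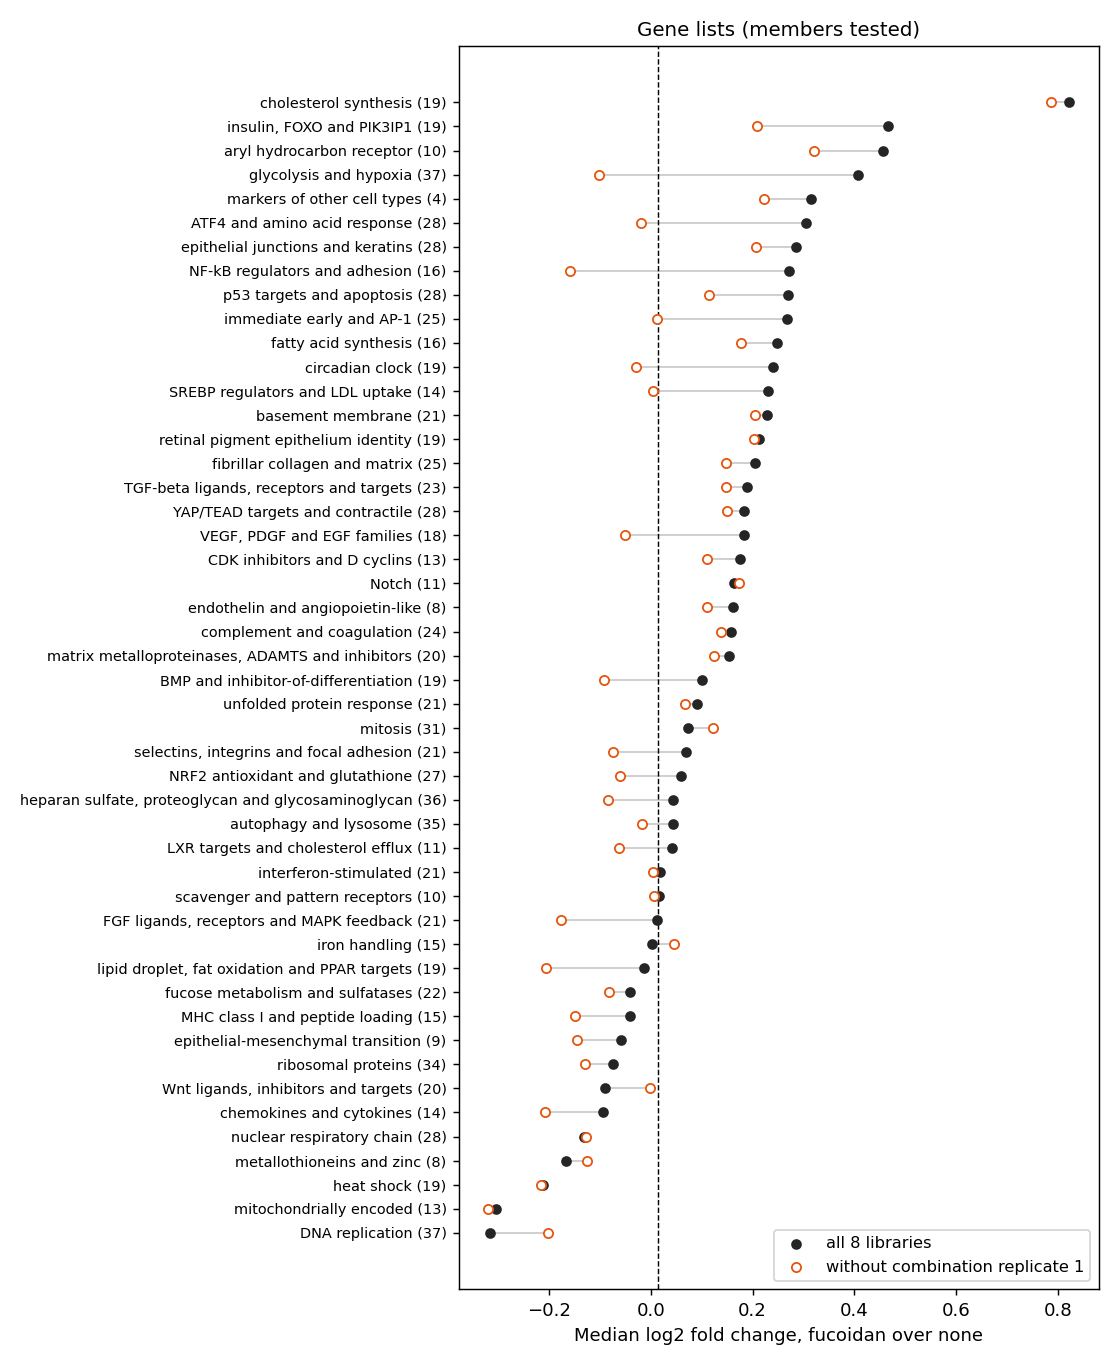
Median fucoidan coefficient (log2) of each gene list with all 8 libraries (filled) and without combination replicate 1 (open), with the number of tested members in brackets. The dashed line is the median of all genes; cholesterol synthesis is at 0.82 and 0.78, DNA replication at the bottom at -0.32 and -0.20, and glycolysis and hypoxia at 0.41 and -0.10.

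Of the 48 gene lists, cholesterol synthesis was the only one with at least 3 members called. DNA replication genes leaned lower. Of 37 tested, 0 passed by edgeR (1 by DESeq2), 37 had a negative coefficient, 16 were lower at an unadjusted p of 0.05, against 7.16% of all genes, and 13 lay lower without overlap in both settings, against 8.65%. The 16 became 28 without combination replicate 2, 10 without control replicate 2, 9 without fucoidan replicate 1 and 6 without particulate replicate 1. The median was -0.32, and without combination replicate 1 it was -0.20, with 34 negative. E2F1, a transcription factor of S-phase genes, had 46.7 and 55.7 CPM in fucoidan cells, against 80.2 and 99.5 CPM in control cells, and 94.5 and 99 CPM in combination cells, against 133 and 108 CPM in particulate cells. It stood at -0.56 ± 0.14 (adjusted p = 0.198), the helicase subunit gene MCM3 at -0.42 ± 0.12, ORC1 of the origin complex at -0.50 ± 0.15 and POLA2 of the primase complex at -0.68 ± 0.23. MKI67, a marker of cycling cells, was at 0.31 ± 0.18 (adjusted p = 0.415), and at 0.13 without combination replicate 2.

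Heat shock genes were also mostly negative, with 17 of 19 below 0, whereas 52% of all genes were above 0. At an unadjusted p of 0.05, 6 were lower, against 7.16% of all genes. After adjustment 0 passed by edgeR (3 by DESeq2), and the median was -0.21. Without combination replicate 1 the passing count was 1, FKBP4 (0.0294). FKBP4, a cochaperone of HSP90, had 75.1 and 76.9 CPM in fucoidan cells, against 109.9 and 108 CPM in control cells, and 142 and 138 CPM in combination cells, against 225 and 199 CPM in particulate cells. Treated and untreated libraries did not overlap in either setting, and the coefficient was -0.56 ± 0.09 (adjusted p = 0.0614). HSPH1 stood at -0.54 ± 0.12 (0.15) and AHSA1 at -0.45 ± 0.12 (0.202), whereas DNAJB1 was at 0.28 ± 0.14 (0.351). All 13 mitochondrially encoded genes had negative coefficients, with a median of -0.30. Of these 0 lay lower without overlap in both settings, against 8.65% of all genes. At an unadjusted p of 0.05, 3 were lower, against 7.16% of all genes. That count was 8 without particulate replicate 2, 6 without control replicate 1, 2 without combination replicate 2, 1 without combination replicate 1 and 0 without any of the other 4 libraries. The median was -0.17 without control replicate 2 and -0.13 without particulate replicate 1.

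The list of insulin signalling, FOXO and IGF-binding genes leaned higher. Of 19 tested, 16 were positive, against 52% of all genes, and 9 were higher at an unadjusted p of 0.05, against 8.05%. The 9 became 5 without particulate replicate 1. The median was 0.47, or 0.21 without combination replicate 1. By edgeR 0 passed with all libraries and 2, PIK3IP1 and TXNIP, without either combination replicate. PIK3IP1, an inhibitor of PI3-kinase, had 99.8 and 90.3 CPM in fucoidan cells, against 50.2 and 47.3 CPM in control cells, and 25.4 and 13.8 CPM in combination cells, against 4.96 and 5.19 CPM in particulate cells. It was higher with fucoidan in both settings, at 1.40 ± 0.23 (adjusted p = 0.0614). Its adjusted p was 0.00181 and 0.0428 without combination replicates 1 and 2, and up to 0.266 without another library. TXNIP, which restrains glucose uptake, had 85.8 and 80.7 CPM in fucoidan cells, against 44.2 and 41.2 CPM in control cells, and 69.3 and 23.2 CPM in combination cells, against 15 and 14.3 CPM in particulate cells. It stood at 1.30 ± 0.29 (adjusted p = 0.169), and at 0.85 without combination replicate 1 (0.00539) and 1.48 without combination replicate 2 (0.0359). Without another library its adjusted p reached 0.556. The glycolysis and hypoxia list moved with single libraries. With all libraries 34 of 37 members were positive, against 52% of all genes, and the median was 0.41. Of the 37, 0 lacked overlap in both settings, against 7.84% of all genes higher and 8.65% lower. Without combination replicate 1, 12 members were positive and the list had a median of -0.10. Its median was 0.68 without combination replicate 2, where 1 member passed, 0.21 without particulate replicate 1 and 0.64 without particulate replicate 2.

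A panel of 38 genes of lipid, stress, inflammatory, growth factor, matrix and cell cycle roles was read whatever its result, and all 38 were tested. Of these 4 rose (HMGCS1, INSIG1, SQLE and COL1A1), against 0.113% of all genes, and 0 fell. All 4 were already among the called genes described above, so the panel count adds no further evidence. VEGFA, the main angiogenic factor of pigment epithelium, had 337 and 294 CPM in fucoidan cells, against 217 and 175 CPM in control cells, and 1088 and 219 CPM in combination cells, against 211 and 535 CPM in particulate cells. It overlapped in the setting with particles and stood at 0.75 ± 0.42 (adjusted p = 0.393), and at 0.15 without combination replicate 1. FGF2, a growth factor that fucoidan is known to bind, was at 0.35 ± 0.20 (0.403) and at 0.085 without combination replicate 2, and EGR1 and DUSP6, which growth factors induce through MAP kinases, at 0.38 ± 0.15 and -0.30 ± 0.15 (0.289 and 0.364).

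TGFB2, the main TGF-beta of the eye, had 483 and 419 CPM in fucoidan cells, against 485 and 482 CPM in control cells, and 117 and 138 CPM in combination cells, against 45 and 56.3 CPM in particulate cells. The fucoidan coefficient of TGFB2 was 0.61 ± 0.26 (adjusted p = 0.31). The combination libraries lay above the particulate ones, at 1.33 ± 0.17 (adjusted p = 0.0255). By contrast the fucoidan and control libraries overlapped, at -0.10 ± 0.16 without passing. The interaction was 1.43 (95% interval 0.78 to 2.08) with an adjusted p of 0.497. CCN2, a matricellular target of TGF-beta and YAP, stood at 0.64 ± 0.27 (adjusted p = 0.313), and at 0.30 without combination replicate 2. The BMP targets ID1 and ID3 were at -0.93 ± 0.24 and -0.48 ± 0.20 (0.198 and 0.305). ID1 had 40.2 and 42.1 CPM in fucoidan cells, against 63.3 and 55 CPM in control cells, and 6.2 and 13.1 CPM in combination cells, against 28 and 22.7 CPM in particulate cells, and the treated libraries were the lower ones in both settings. Of the oxidative stress genes, HMOX1 (heme oxygenase) had 59.2 and 58.7 CPM in fucoidan cells, against 28.9 and 25.4 CPM in control cells, and 547 and 149 CPM in combination cells, against 283 and 282 CPM in particulate cells, a spread in the combination that covered the particulate level. HMOX1 stood at 0.70 ± 0.33 (adjusted p = 0.34). Without combination replicate 2 it passed at 1.05 (0.00718), and without combination replicate 1 it was 0.33 (0.638). SLC7A11, the cystine importer, stood at 0.44 ± 0.16 (0.277) and the metallothionein MT2A at -0.58 ± 0.15 (0.209).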

How the data were processed

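Gene counts were used as deposited by the authors. Per the submitters' processing notes they came from featureCounts (Subread 2.0.1) after HISAT2 2.1.0 alignment to GRCh38, with reads trimmed by fastp 0.20.0. TPM were used as deposited, per the file headers, in an alternative only. Per the labels' protocols libraries were stranded poly(A) libraries. The sources used here name neither the annotation release nor the strand setting, so genes that overlap others are uncertain.

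Of 60623 genes, 33419 had no read. filterByExpr with the 4 groups kept 15010. TMM scaling and edgeR 4.0.16 (glmQLFit and glmQLFTest, R 4.3.3) fitted particulate plus fucoidan with 5 residual degrees of freedom. A fit with 1 mean per group (4 degrees of freedom) gave the settings and the interaction. P-values were adjusted by Benjamini-Hochberg over all genes tested. Levels are CPM. Intervals use the t distribution at 95% with the 4 residual degrees of freedom of the fit with 1 mean per group. Gene positions are from GENCODE 29. Alternatives used DESeq2 1.42.0, limma 3.58.1, other scalings and filters, a replicate block and single libraries left out. In simulated data 75% of genes changed 2-fold and 93% of those changed 4-fold were found among 14803, with 13 false calls of 181. Whether these rates hold for the libraries of this series, whose spread between replicates was unequal, was not tested.

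The members, gene lists and tests were chosen with earlier results of these data known. Genes were named by size and p of the fucoidan coefficient, plus up to 4 members of any list with 3 calls and the panel. Other list members and single genes were chosen after their values were seen, and a selection is printed. Some genes are not reported here, and the lists and panel are counted without them.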

Additional observations from a re-analysis of the deposited data

How the results depend on the processing

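The fucoidan coefficient rested on 4 against 4 libraries of unequal spread, and the counts of called genes moved more than the fold changes. All 18 genes kept their direction in every alternative in which they were tested. The counts of higher and lower genes, 17 and 1 as reported, were 122 and 91 with DESeq2, 705 and 265 with no filter beyond 1 read, 269 and 224 with limma-voom quality weights, and 186 and 130 without both libraries numbered 1 of the setting with particles. Lower genes numbered 2 with upper-quartile scaling, with a filter at a mean of 5 CPM and with the mean of the within-setting contrasts, and 0 with limma-trend on log2(TPM + 1) or log2(TPM + 0.1). Leaving out 1 library at a time gave 1 to 51 higher and 0 to 15 lower genes.

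The interaction called 18 genes with DESeq2, 156 with no filter and 0 to 865 without 1 library. Fucoidan against control called 21 with DESeq2, 73 with no filter, 849 in a fit of its 4 libraries and 0 to 38 without 1 library. Combination against particulate, 13 as reported, called 312 with DESeq2, 1197 with no filter, 0 in a fit of its 4 libraries and 0 to 3257 without 1 library. The cause was not tested.

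The coefficient of SREBF1, 0.17 as reported, was -0.014 with limma-voom quality weights, -0.11 without both libraries numbered 1 of the setting with particles, and ran from -0.13 to 0.33 without 1 library.

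The labels number replicates in each group. With the replicate number as a block, 5 higher and 0 lower genes were called for fucoidan, all 5 among the 18, and 3 for combination against particulate. Differences between replicates correlated at 0.07 between fucoidan and control and -0.22 between combination and particulate. Over all pairs of groups the correlations ran from -0.25 to 0.08. With 2 libraries per group they cannot show whether equal numbers mark a shared batch, which the labels do not say. Crossing the combination numbers, an alternative chosen after seeing the data, gave 17 calls, and 9 for combination against particulate.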

Other observations

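Without combination replicate 1, 66 genes passed for fucoidan by edgeR's quasi-likelihood test, among them all 18 reported with 8 libraries. The genes in these sentences were chosen after their values were seen. SOX4, a transcription factor that TGF-beta induces, had 241 and 196 CPM in fucoidan cells, against 143 and 121 CPM in control cells, and 89.6 and 93.3 CPM in combination cells, against 46.8 and 58.8 CPM in particulate cells. Its coefficient was 0.76 ± 0.12 with all libraries (adjusted p = 0.0507) and 0.77 without that library (0.0171). CDKN2B, the cyclin-dependent kinase inhibitor p15, had 267 and 222 CPM in fucoidan cells, against 168 and 146 CPM in control cells, and 49.6 and 58 CPM in combination cells, against 20.8 and 20.8 CPM in particulate cells, and stood at 0.99 ± 0.16 (adjusted p = 0.059) and 0.97 (0.0238). ANGPTL7, a secreted protein known from the front of the eye, had 80.4 and 70.1 CPM in fucoidan cells, against 37.9 and 35 CPM in control cells, and 0.8 and 1 CPM in combination cells, against 0.231 and 0.122 CPM in particulate cells. Fucoidan was on the higher side in both settings although its level was low with particles, and the coefficient was 1.21 ± 0.20 (adjusted p = 0.0607) and 1.15 (0.0143).

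On the lower side, AJAP1, a junction-associated membrane protein, had 27.7 and 29.5 CPM in fucoidan cells, against 46.1 and 51.2 CPM in control cells, and 72.4 and 58.6 CPM in combination cells, against 98 and 105 CPM in particulate cells. It stood at -0.70 ± 0.11 with all libraries (adjusted p = 0.0507) and -0.77 without combination replicate 1 (0.00547). FKBP4 passed in that fit as well, at -0.56 (0.0294). For AJAP1 and FKBP4 the fucoidan libraries lay below control and the combination libraries below particulate without overlap.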
